A study of Mus musculus with 125 samples.

Results

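The Oas and Oasl clusters of the mouse lie on chromosome 5, and their chromatin accessibility was followed here in lines of B-ALL, acute lymphoblastic leukaemia of B cells, grown with or without natural killer (NK) cells. The members were all consensus peaks of the ATAC-seq data set with their centre in either of 2 windows of chromosome 5 (GRCm38), 200 kb wide over the Oas genes (Oas2 to Oas1d) and 70 kb wide over the Oasl genes (Oasl2, Oasl1 and their neighbour 2210016L21Rik). They numbered 70 of 256400 consensus peaks, with 52 in the Oas window and 18 in the Oasl window. ATAC-seq marks open DNA by the insertion of sequencing adapters with the Tn5 transposase, and a consensus peak is an interval merged from the broad peaks of all libraries.

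Oas genes encode 2′-5′-oligoadenylate synthetases, which are activated by double-stranded RNA and make the second messenger 2-5A, which leads to the breakdown of viral and cellular RNA. They are classical interferon-stimulated genes, whose promoters are opened by STAT and IRF factors at the interferon-stimulated response element (ISRE, bound by the ISGF3 complex and by IRFs) or the gamma-activated site (GAS, bound by STAT dimers). In the mouse, Oas1 was duplicated into a row of paralogues of which Oas1a and Oas1g are known to make 2-5A, and the OAS-like genes encode proteins with ubiquitin-like domains, Oasl2 with and Oasl1 without synthetase activity.

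The lines were generated by transformation of mouse bone marrow with a BCR/ABLp185 retrovirus and were marked with a lentiviral barcode library that carries GFP. A and B derive from parental line #13, whereas C and D derive from parental line #15, and each pair of lines represents a single parental line. Groups comprised co-cultures with NK cells (B-ALL + NK) taken at an early (TP1) or a late (TP2) time point and cultures without them (B-ALL alone) taken at TP1, and there were 14 line-by-experiment combinations, of which 6 belonged to A/B and 8 to C/D. All cultures received IL-2, NK cells were from wild-type spleens and were added at an effector to target ratio of 1:1, and GFP+ tumour cells were sorted before transposition. By the protocol of the study, tumour cells sorted at the early harvest were plated again with fresh NK cells at the same ratio. Cells of the co-cultures at TP2 had thus met NK cells more than once. The labels give day 4 for TP1 and day 10 for TP2, and days 6 and 16 in experiment 9.7. The text of the study gives a later day for TP2 than the labelled day 10, while its ranges of days include 6 and 16. B-ALL alone was sampled at TP1 only, so the length of culture, the re-plating and the repeated exposure to NK cells cannot be told apart at TP2. TP2 also differed from TP1 in all of these. Of the 125 libraries, 41 groups held 3 and 1 held 2, and in 2 groups of line C a pair of replicates differed by less than sampling noise and entered as 1 sample, so that 123 samples remained (A/B 54, C/D 69).

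Each library held between 3083547 and 13580746 counts over all peaks, with a median of 7738029. With NK cells, the median total of A/B was 8203902 at TP1 and 6675195 at TP2, against 7082266 alone. For C/D the medians were 8777344 and 8180558, against 7442967 alone, and the counts were scaled for this. All 10 of 10 B cell markers had a tested peak, while Ncr1, Klrk1 and Gzma of the 12 NK cell markers, with Gzmb in A/B and Nkg7 in C/D, and 5 of 6 T cell markers had none. Replicate 2 of D with NK cells at TP2 in experiment 9.6 stood apart with 101211 broad peaks, against 62541 or fewer in the other libraries, and results that rest on it are given with and without it.

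Promoter sequences are shown for 5 genes, each 250 bases before to 50 bases after the RefSeq start on the strand of the gene (GRCm38.p6), because their start peaks either rose with NK cells (Oas3, Oas1a, Oasl2) or serve as a close paralogue with few reads at its start (Oas1g) or an open start that did not pass the test (Oas1c). The promoter sequences used held no entry for Oas2, whose start peak rose too, nor for Oas1e, Oas1b and Oas1d, so no window of their own was searched. The Oas1c window, however, also holds the annotated start of Oas1b (chr5:120812635). Capitals mark matches to the ISRE core GAAANNGAAA, or to its reverse complement, and to the GAS letters TTCNNNGAA. The windows are chr5:120777610-120777909 for Oas3, chr5:120907476-120907775 for Oas1a, chr5:120887564-120887863 for Oas1g, chr5:120812465-120812764 for Oas1c (all on the minus strand) and chr5:114896684-114896983 for Oasl2 (plus strand).
Oas3: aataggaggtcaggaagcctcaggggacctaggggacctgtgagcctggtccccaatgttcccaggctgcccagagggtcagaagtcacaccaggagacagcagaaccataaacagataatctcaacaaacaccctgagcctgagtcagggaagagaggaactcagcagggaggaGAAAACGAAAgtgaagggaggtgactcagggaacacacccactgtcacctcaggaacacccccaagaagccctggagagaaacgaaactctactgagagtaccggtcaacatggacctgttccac
Oas1a: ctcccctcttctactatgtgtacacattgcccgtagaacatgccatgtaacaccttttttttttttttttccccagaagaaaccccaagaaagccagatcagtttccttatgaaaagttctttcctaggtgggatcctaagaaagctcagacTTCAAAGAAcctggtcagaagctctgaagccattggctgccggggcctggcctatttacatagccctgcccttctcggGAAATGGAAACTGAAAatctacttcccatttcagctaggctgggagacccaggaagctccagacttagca
Oas1g: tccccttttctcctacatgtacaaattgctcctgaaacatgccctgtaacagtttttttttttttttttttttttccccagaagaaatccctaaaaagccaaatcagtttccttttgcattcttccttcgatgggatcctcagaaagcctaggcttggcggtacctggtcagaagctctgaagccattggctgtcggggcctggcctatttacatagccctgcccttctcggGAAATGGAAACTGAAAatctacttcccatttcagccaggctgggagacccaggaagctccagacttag
Oas1c: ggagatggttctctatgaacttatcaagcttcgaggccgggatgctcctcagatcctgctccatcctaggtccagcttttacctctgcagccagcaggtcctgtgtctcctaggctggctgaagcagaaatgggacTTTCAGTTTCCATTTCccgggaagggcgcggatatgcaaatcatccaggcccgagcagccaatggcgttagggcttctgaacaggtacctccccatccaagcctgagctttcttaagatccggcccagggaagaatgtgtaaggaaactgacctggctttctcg
Oasl2: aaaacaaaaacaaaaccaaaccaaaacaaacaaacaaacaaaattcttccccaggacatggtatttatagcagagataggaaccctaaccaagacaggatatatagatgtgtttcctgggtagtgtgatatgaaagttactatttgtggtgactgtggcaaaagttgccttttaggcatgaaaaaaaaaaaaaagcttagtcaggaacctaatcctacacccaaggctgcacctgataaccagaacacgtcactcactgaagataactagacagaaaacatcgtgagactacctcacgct

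The Oas3 window held 1 ISRE core, 75 to 66 bases upstream of the start. The Oas1a and Oas1g windows each held 2 overlapping ISRE cores with the same letters in both genes, the first at 20 and the second at 14 bases upstream in Oas1a and at 18 and 12 bases upstream in Oas1g. Oas1a also had 1 GAS match, 98 to 90 bases upstream, which did not overlap the ISRE cores. In Oas1c 2 overlapping cores lay on the opposite strand, 114 to 99 bases upstream, in the stretch between the divergent starts of Oas1c and Oas1b. Read on the strand of Oas1b, these cores have the same letters as those of Oas1a and Oas1g and lie just upstream of the annotated Oas1b start. No match to either motif was found in the windows of Oasl2, Oasl1, Oas1f and Oas1h. Searched on both strands, the ISRE core was present in 3.44% and the GAS letters in 8.3% of 32851 RefSeq promoters of the same length, and in 4.79% and 9.12% of the central 300 bases of 58840 tested peaks, so that a match describes the letters only.

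The peaks differed widely in depth. To be tested, a peak needed 1 group of the pair of lines with broad peaks over it in all its replicates and had to pass the count filter of edgeR, which 16 of the 70 members did in A/B (of 48997 peaks genome-wide), while 19 did in C/D (of 55461). The 19 peaks had a median length of 1699 bp, 11 had their centre within 3 kb of a transcription start and 8 held a start. The other 51 were short (median 363 bp) and shallow, and over the 48 members not named here the median CPM (read counts scaled to library size) of a peak lay between 0.16 and 6.16 in the 6 sets of samples. Some members passed only through groups with NK cells. Oas1a was covered in every replicate of 10 groups, 5 at TP1, 5 at TP2 and none alone, the distal intron of Oas1e of 5 groups and none alone, the proximal intron of Oas1e of 2 groups at TP1 and the exon peak of Oasl2 of 1 group at TP2. Within a pair of lines this also held for the Oas1e start in C/D and the Oas1f intron in A/B, both through groups at TP2. Counts over the tested members are therefore descriptions.

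Per kb of peak and among the gene starts, cells alone had the most open chromatin at the Oasl1 promoter, followed by Oas2, Oas3 and the shared start of Oas1c and Oas1b. The peak upstream of Oasl1, which holds no Oas or Oasl start, had 11.9 ± 1.45 and 10.2 ± 1.59 CPM per kb, within the spread of Oas2 and Oas3 in C/D. Accessibility alone was 21.4 ± 4.07 CPM per kb in A/B (SD, n = 6 combinations) and 17.9 ± 4.10 CPM per kb in C/D (n = 8) at the Oasl1 promoter. Oas2 (10.8 ± 2.52 in A/B, 10.4 ± 1.98 CPM per kb in C/D), Oas1c and Oas1b (10.3 ± 0.55 and 9.13 ± 0.49) and Oas3 (9.15 ± 1.29 and 10.4 ± 1.84) did not differ beyond their spread. Oasl2 came next with 6.80 ± 0.70 and 5.71 ± 0.51 CPM per kb. The starts of Oas1e (2.76 and 3.15), Oas1d (1.80 and 2.04), Oas1a (1.02 and 1.87) and Oas1g (1.09 and 1.45) were lower still.

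Oas3 encodes the largest of the synthetases. Its start peak (chr5:120774582-120777985, over the first exon and intron, where it also holds the start of the antisense gene Gm43069) rose with NK cells in both pairs of lines and at both time points. Over the samples of A/B, the lowest, median and highest values were 30.3, 42.9 and 54.2 CPM with NK cells at TP1 and 32.3, 43.8 and 61.9 CPM at TP2, against 22.2, 30.2 and 40.7 CPM alone. In C/D they were 31.7, 46.7 and 59.7 CPM at TP1 and 30.6, 52.4 and 70.7 CPM at TP2, against 24.6, 34.8 and 49.7 CPM alone. The ranges of the groups overlapped over the experiments, but the mean was higher with NK cells in all 14 combinations at both time points, and every library with NK cells lay above every library alone in 9 of 14 combinations at TP1 and in 11 of 14 at TP2. The log2 fold change in A/B was 0.43 ± 0.06 (SE) at TP1 (edgeR quasi-likelihood test with Benjamini-Hochberg adjustment, adjusted p = 5.07e-09) and 0.48 ± 0.06 at TP2 (adjusted p = 5.52e-10), which is 1.34-fold and 1.39-fold. In C/D it was 0.34 ± 0.05 at TP1 (adjusted p = 7.43e-07) and 0.53 ± 0.05 at TP2 (adjusted p = 1.26e-12), that is 1.27-fold and 1.45-fold. None of these reached the log2 threshold of 0.58 that the study set for a call. The changes lay above those of 89.8%, 93.2%, 95.3% and 97.7% of all peaks tested in the same comparison. Oas3 rose further by TP2 in C/D only by a small amount (TP2 over TP1 0.19 ± 0.05, adjusted p = 0.0046, and 0.17 without the library that stood apart), and experiment 9.7 taken alone gave 0.44 while the others gave -0.09 to 0.16 and the count filter alone gave 0.09 (adjusted p = 0.485). In A/B the TP2 over TP1 difference was 0.05 ± 0.05 (adjusted p = 0.566). Each change was measured in a pool of sorted cells, so a larger share of cells with the site open and a more open site in each cell cannot be told apart.

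Oas2 encodes the synthetase of intermediate size. Its start peak (chr5:120749090-120750328, over the first coding exon) rose in A/B at TP1 but stood at the level of cells alone at TP2, whereas in C/D it was raised at both times. In A/B the values were 11.9, 17.1 and 24.6 CPM with NK cells at TP1 and 8.54, 12.9 and 18.7 CPM at TP2, against 8.36, 12.6 and 19.2 CPM alone (lowest, median and highest). In C/D they were 11.3, 18.0 and 24.8 CPM at TP1 and 10.2, 19.3 and 25.04 CPM at TP2, against 8.50, 13.4 and 16.9 CPM alone. The median at TP2 in C/D was thus above the highest library alone, and in A/B the samples at TP2 spanned the same range as those alone.

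The log2 fold change of Oas2 in A/B was 0.36 ± 0.07 at TP1 (edgeR adjusted p = 1.34e-05) and -0.00 ± 0.07 at TP2 (adjusted p = 0.996, 95% interval -0.14 to 0.14). TP2 was lower than TP1 by -0.36 ± 0.07 (adjusted p = 0.00011), with the adjusted p above 0.05 in experiments 9.5 and 9.7 taken alone and in line B alone. In C/D the changes were 0.51 ± 0.06 at TP1 (adjusted p = 1.73e-09) and 0.55 ± 0.07 at TP2 (adjusted p = 2.57e-10), and TP2 over TP1 was 0.04 ± 0.06 (adjusted p = 0.647). All 6 combinations of A/B were higher at TP1, by 0.24 to 0.46, and at TP2 the 3 combinations of line B gave 0.10 to 0.24 and the 3 of line A -0.20 to -0.09. All 8 combinations of C/D were higher at both times, by 0.28 to 0.94 at TP1 and 0.04 to 0.87 at TP2. The difference of the NK effect between the pairs (A/B minus C/D) was -0.56 ± 0.10 at TP2 (adjusted p = 5.8e-06) and -0.14 ± 0.09 at TP1 (adjusted p = 0.282). The TP2 difference stayed between -0.66 and -0.42 with an adjusted p of 0.05 or less in each of 8 alternatives run. These covered scaling, a replicate block, left-out replicates and the left-out library. Whether the difference holds without a line, an experiment or a combination was not tested, although lines A and B went opposite ways at TP2. C/D also held experiments that A/B lacked. The pairs stem from different parental lines, so the p-value does not measure the spread between parental lines.

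**Figure D1:**
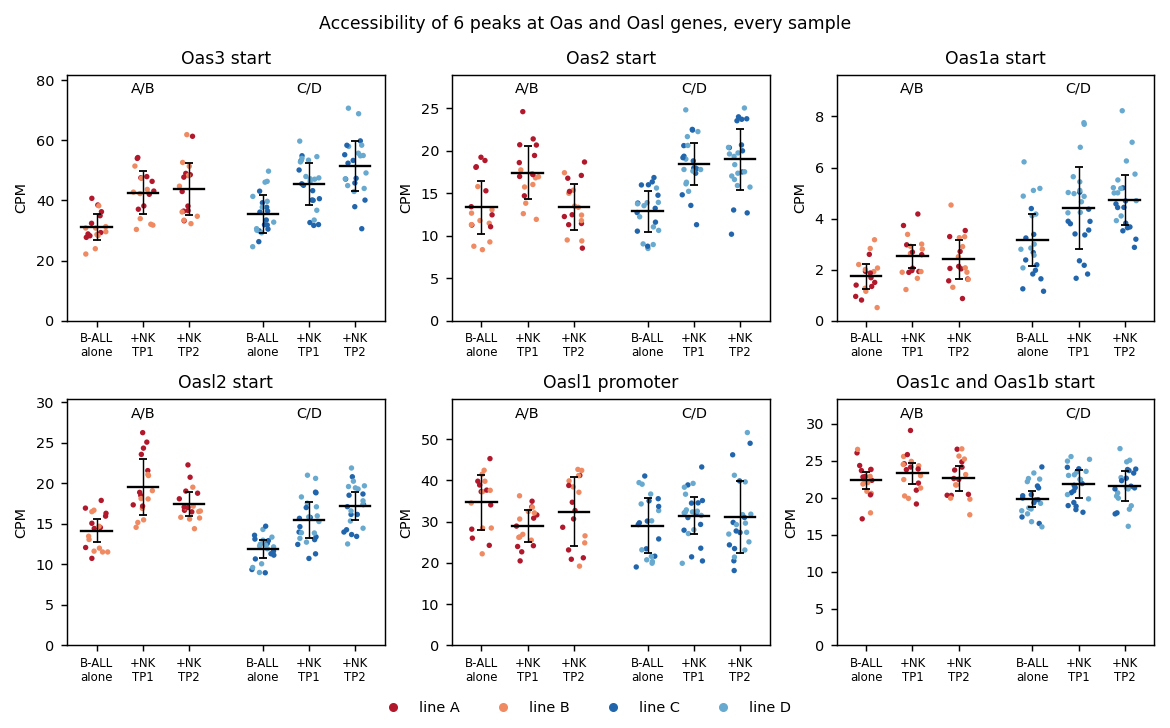
CPM of 6 peaks at Oas and Oasl genes in every sample (points, coloured by cell line), for B-ALL alone and for B-ALL + NK at either time point, with A/B on the left and C/D on the right of each panel. Lines and bars give the mean and SD over combinations of cell line and experiment (n = 6 in A/B, n = 8 in C/D), and Oas3 and Oasl2 lie higher with NK cells in both pairs, Oas2 in C/D at both times and in A/B at TP1.

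**Figure D2:**
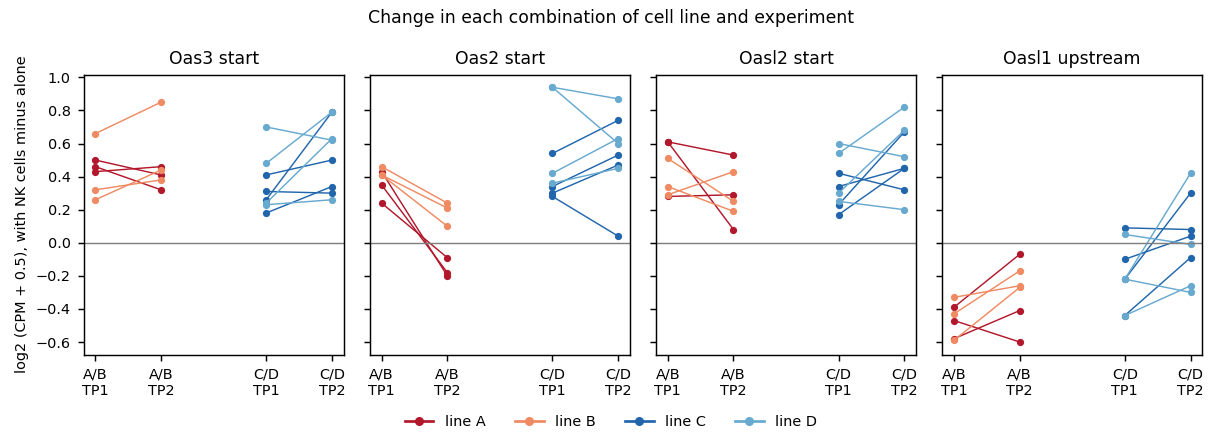
Change in log2 (CPM + 0.5) with NK cells over B-ALL alone (y axis) at TP1 and TP2 in each of the 14 combinations of cell line and experiment (1 line each, coloured by cell line) for 4 peaks. Oas3 and Oasl2 are above 0 in all combinations, Oas2 is between -0.20 and 0.24 in A/B at TP2, and the peak upstream of Oasl1 is below 0 in all 6 combinations of A/B at both times.

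Oas1a is an Oas1 paralogue with synthetase activity. Its start peak (chr5:120906687-120908385, centred on the start) was shallow and was more open in C/D than in A/B. In C/D it had 1.66, 4.31 and 7.76 CPM with NK cells at TP1 and 2.87, 4.69 and 8.23 CPM at TP2, against 1.15, 2.82 and 6.22 CPM alone (lowest, median and highest). In A/B it had 1.22, 2.61 and 4.18 CPM at TP1 and 0.868, 2.10 and 4.53 CPM at TP2, against 0.513, 1.78 and 3.17 CPM alone. The ranges overlapped in both pairs, and behind them stood 3 to 53 reads per library. A broad peak of the single library covered it in 18 of 24 libraries of C/D with NK cells at TP1 and in 19 of 24 at TP2, against 6 of 23 alone, and in 4 of 18 and 2 of 18 libraries of A/B, against 0 of 18 alone.

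Oas1a passed the filter in C/D alone, through groups with NK cells. The log2 fold change there was 0.47 ± 0.11 at TP1 (edgeR adjusted p = 0.000715) and 0.59 ± 0.11 at TP2 (adjusted p = 1.78e-05), the only call of the clusters in C/D at TP2, where 2.75% of all tested peaks were called. All 8 combinations were higher at both times, by 0.11 to 0.66 and by 0.23 to 0.98. Without replicate 2 of D at TP2 in experiment 9.6 the TP2 change was 0.54 ± 0.11 (adjusted p = 4.81e-05), under the log2 threshold. The call was also lost without combination C 9.5 (0.54), C 9.5.1 (0.56), C 9.7 (0.57) or D 9.6 (0.52), without replicate 2 of every group (0.49) and with library totals as the scaling (0.56), while the adjusted p stayed under 0.05 in each of these. It was lost too in line D alone (0.48) and in experiments 9.5 (0.57) and 9.7 (0.47) alone, with an adjusted p under 0.05. Experiments 9.5.1 and 9.6.1 alone gave 0.79 and 0.45, with an adjusted p of 0.435 and 0.306 and no call. With the count filter alone, which does not use the peak calls, the changes were 0.57 ± 0.10 and 0.59 ± 0.10 in C/D (adjusted p = 3.02e-05 and 2.45e-05), and 0.54 ± 0.15 at TP1 (adjusted p = 0.00815) and 0.42 ± 0.16 at TP2 (adjusted p = 0.0801) in A/B. Of 50-base words in the peak, 15.8% recurred elsewhere in the windows, so that some reads may be shared with its paralogues.

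The start of Oas1g, whose window carries the same ISRE letters, stayed near zero. Its median over the samples was 0.681 CPM with NK cells at TP1 and 1.15 CPM at TP2, against 0.569 CPM alone in A/B, and 0.805 and 0.695 CPM, against 0.701 CPM alone in C/D. A broad peak covered it in 2 of 125 libraries, so it failed the main filter. With the count filter alone its change was 0.10 ± 0.27 at TP1 and 0.39 ± 0.27 at TP2 in A/B (edgeR adjusted p = 0.879 and 0.439), and 0.02 ± 0.20 and -0.08 ± 0.20 in C/D (adjusted p = 0.973 and 0.89). In the peak 39.4% of the 50-base words recurred elsewhere in the windows, the highest share among the named peaks, so that reads from it are less often unique. Oas1h and Oas1f, paralogues without known synthetase activity, had promoter peaks of 1.08 to 1.37 CPM and 0.331 to 0.724 CPM (medians over the 6 sets of samples) that failed the main filter too.

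The shared start of Oas1c and Oas1b was open in all 125 libraries. Oas1b is known for resistance to flaviviruses and is annotated as a polymorphic pseudogene, and Oas1c lacks synthetase activity. The peak (chr5:120811417-120813591) had 19.2, 23.9 and 29.1 CPM with NK cells at TP1 and 17.7, 22.6 and 26.6 CPM at TP2, against 17.2, 22.6 and 26.6 CPM alone in A/B, which are nearly the same ranges. Its changes were 0.05 ± 0.05 and 0.02 ± 0.05 in A/B (edgeR adjusted p = 0.492 and 0.827, 95% intervals -0.06 to 0.15 and -0.09 to 0.13) and 0.12 ± 0.05 at both times in C/D (adjusted p = 0.0667 and 0.0584). Oas1d, an Oas1 paralogue known from the oocyte, gave 0.06 ± 0.11 at TP1 and 0.20 ± 0.11 at TP2 in C/D (adjusted p = 0.768 and 0.162).

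Around Oas1e, a paralogue without known synthetase activity that lies within the antisense gene Gm43069, an intronic peak 8078 bp downstream of the start gave the only call in A/B, at TP2, where 6.41% of all tested peaks were called. It had passed the filter only through groups with NK cells, over both pairs 2 at TP1 and 3 at TP2, which favours a higher value in them. The peak (chr5:120786613-120788292) had 2.85, 5.23 and 9.17 CPM with NK cells at TP1 and 4.23, 6.46 and 10.99 CPM at TP2, against 1.55, 4.37 and 7.21 CPM alone in A/B, so that the ranges overlapped. Its change was 0.39 ± 0.13 at TP1 (edgeR adjusted p = 0.0108) and 0.60 ± 0.13 at TP2 (adjusted p = 0.00016) in A/B, and 0.25 ± 0.10 (adjusted p = 0.0666) and 0.54 ± 0.10 (adjusted p = 1.25e-05) in C/D. All 14 combinations were higher at TP2, by 0.08 to 1.02, and 11 of 14 at TP1. The A/B call lay just over the threshold and was lost in 9 of 22 alternatives, and with the count filter alone, which does not use the peak calls, the change was 0.52 ± 0.12 (adjusted p = 0.00128) and no call. The start of Oas1e had a log2 change of 0.40 ± 0.12 at TP2 in C/D (adjusted p = 0.00595), and 0.31 ± 0.10 (adjusted p = 0.0174) without the library that stood apart. In C/D this start had passed the filter only through groups of line D with NK cells at TP2, which favours a higher value there. With the count filter alone its change was 0.38 ± 0.10 (edgeR adjusted p = 0.0113). Its combinations did not move alike, with 6 of 8 higher and 2 lower and a range of -0.42 to 1.19. The highest was D 9.6, where the libraries at TP2 had 6.00 to 14.1 CPM, against 2.68 to 4.18 CPM alone, and the lowest was C 9.5.1, with 2.75 to 3.92 CPM, against 4.80 to 4.81 CPM alone. The adjusted p was above 0.05 in 7 of 28 alternatives, among them without combination D 9.6, and the sign turned in experiments 9.5.1 and 9.6.1 alone. An intergenic peak between Oas1b and Oas1f (chr5:120830248-120832041), singled out after its values were seen, rose in C/D by 0.27 ± 0.08 and 0.35 ± 0.09 (adjusted p = 0.0165 and 0.000868), with the adjusted p above 0.05 in 12 and 6 of 27 alternatives. Of the 50-base words, 14.4% in the distal intron of Oas1e, 17.6% in its start and 9.74% in the intergenic peak recurred elsewhere in the windows. Some of their reads may therefore be shared with paralogues, as for Oas1a.

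Oasl2 encodes an OAS-like protein that keeps synthetase activity in the mouse. Its start peak (chr5:114896200-114898284, over the 5′ UTR) was open in all 125 libraries and rose with NK cells at both times in both pairs. In A/B the values were 14.6, 18.7 and 26.3 CPM with NK cells at TP1 and 14.4, 17.0 and 22.3 CPM at TP2, against 10.7, 14.5 and 17.9 CPM alone. In C/D they were 10.7, 15.5 and 21 CPM at TP1 and 12.5, 17.4 and 21.9 CPM at TP2, against 8.96, 12.2 and 14.7 CPM alone. The medians with NK cells thus lay above the highest sample alone in C/D at both times and in A/B at TP1.

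The change of Oasl2 was 0.44 ± 0.06 at TP1 (edgeR adjusted p = 8.02e-08) and 0.29 ± 0.07 at TP2 (adjusted p = 0.000399) in A/B, and 0.37 ± 0.07 (adjusted p = 1.14e-05) and 0.53 ± 0.07 (adjusted p = 2.07e-09) in C/D. It was higher in all 14 combinations at both times. The A/B change at TP2 was 0.12 ± 0.11 in experiment 9.7 alone, against 0.42 and 0.41 in experiments 9.5 and 9.6, and 0.22 ± 0.08 with the count filter alone (adjusted p = 0.061). The difference of the NK effect between the pairs was 0.07 ± 0.09 at TP1 and -0.24 ± 0.09 at TP2 (adjusted p = 0.637 and 0.0598, 95% interval at TP2 -0.42 to -0.06), and TP2 over TP1 gave -0.15 ± 0.06 in A/B (adjusted p = 0.0908) and 0.15 ± 0.06 in C/D (adjusted p = 0.0545). A peak over an exon of Oasl2, singled out after its values were seen, was tested in C/D only and passed the filter through 1 group of D with NK cells at TP2. Its change at TP2 was 0.27 ± 0.09 (adjusted p = 0.0116), and with the count filter alone it was 0.27 ± 0.10 with an adjusted p of 0.0873, one of 12 of 28 alternatives above 0.05.

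Oasl1, which lacks synthetase activity and is known in the mouse to hold back the translation of Irf7, was lower with NK cells in A/B at TP1. Its promoter peak (chr5:114921591-114923209, ending just short of the start, in an intron of the antisense gene Gm13822) was the most open of the named peaks per kb. It had 20.5, 29.8 and 36.3 CPM with NK cells at TP1 and 19.2, 33.7 and 42.7 CPM at TP2, against 22.2, 37.3 and 45.3 CPM alone in A/B. In C/D it had 19.9, 32.2 and 43.2 CPM and 18.1, 29.3 and 51.6 CPM, against 19.0, 29.9 and 41.1 CPM alone. The A/B samples at TP1 lay lower than those alone with overlapping ranges, and in C/D the ranges overlapped at both times.

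The promoter of Oasl1 fell in A/B at TP1 by 0.27 on the log2 scale (SE 0.06, edgeR adjusted p = 0.000107) and gave -0.10 ± 0.06 at TP2 (adjusted p = 0.168), while C/D gave 0.12 ± 0.07 and 0.11 ± 0.07 (adjusted p = 0.268 and 0.264). At TP1 in A/B 13.7% of all tested peaks lay lower still, and 24.8% fell by the adjusted p. The promoter was lower in 5 of 6 combinations, and the adjusted p was above 0.05 in experiment 9.6 alone and in line B alone. The NK effect differed between the pairs at TP1 (-0.38 ± 0.10, adjusted p = 0.00362) and not beyond the threshold at TP2 (-0.21 ± 0.10, adjusted p = 0.124). A pair of neighbouring peaks, singled out after their values were seen, showed the same order. The peak 6738 bp upstream of the start (chr5:114915786-114917217) had 8.20, 12.3 and 17.0 CPM with NK cells at TP1 and 8.25, 14.3 and 20.6 CPM at TP2, against 11.9, 17.3 and 21.2 CPM alone in A/B. It fell by 0.49 (SE 0.07, adjusted p = 1.47e-07) and by 0.30 (SE 0.07, adjusted p = 0.0012) in A/B, was lower in all 6 combinations at both times, and lay below 97.5% of all tested peaks at TP1. In C/D it fell by 0.21 at TP1 (SE 0.06, adjusted p = 0.0122, above 0.05 in 13 of 27 alternatives) and gave 0.04 ± 0.06 at TP2 (adjusted p = 0.688). The difference between the pairs was -0.27 ± 0.09 at TP1 (adjusted p = 0.0316, lost in 5 of 8 alternatives) and -0.34 ± 0.10 at TP2 (adjusted p = 0.00698). In the proximal intron of Oasl1 (chr5:114925974-114927373) A/B fell by 0.31 at TP1 (SE 0.07, adjusted p = 0.000276, above 0.05 in 3 of 22 alternatives). At TP2 A/B gave -0.19 ± 0.07 (adjusted p = 0.0376, above 0.05 in 14 of 22). C/D rose there by 0.25 ± 0.08 at TP2 (adjusted p = 0.0104, above 0.05 in 11 of 27 alternatives), and the pairs differed by -0.37 ± 0.11 at TP1 and -0.44 ± 0.11 at TP2 (adjusted p = 0.0115 and 0.00233). The distal intron of Oasl1 did not change alike, with -0.08 ± 0.12 and 0.03 ± 0.12 in A/B. In C/D it gave -0.07 ± 0.09 and 0.08 ± 0.09, and the pairs differed by -0.01 and -0.05 (adjusted p = 0.967 and 0.838).

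In A/B, B cell marker peaks moved in the same direction as Oasl1. Of the 10, 8 fell at TP1 and 6 at TP2 (adjusted p of 0.05 or less), with a median log2 change of -0.31 and -0.18, and their summed level was 466.2 to 704.1 CPM with NK cells at TP1 and 446 to 871 CPM at TP2, against 537 to 984 CPM alone. In C/D none fell at TP1 or TP2, and the sums were 463 to 840 and 443 to 948 CPM, against 482 to 791 CPM alone. The 8 NK cell marker genes that could be tested, of which 1 differed between the pairs (Nkg7 in A/B, Gzmb in C/D), summed to 57.5 to 85.6 CPM at TP1 and 48.6 to 76.7 CPM at TP2, against 54.0 to 77.1 CPM alone in A/B, where 3 rose at TP1 and 1 fell at TP2, and to 50.8 to 74.0 and 47.8 to 98.7 CPM, against 54.1 to 71.2 CPM alone in C/D, where none rose at TP1 and 1 at TP2. Of 7 myeloid markers, 4 were tested in A/B, with summed levels of 33.6 to 48.5 CPM at TP1 and 34.0 to 52.1 CPM at TP2, against 25.1 to 42.1 CPM alone, and 2 rose at each time. One of these, Mpeg1, a pore-forming protein of macrophages, passed the threshold for a call in A/B at TP1 (0.73 ± 0.08, edgeR adjusted p = 8.35e-12), where 7.9% of all tested peaks were called and no member was. In C/D 5 were tested, of which 1 rose and 2 fell at TP1 and 1 rose at TP2. Lck, the 1 of 6 T cell markers with a tested peak, had 35.4 to 60.0 CPM at TP1 and 39.4 to 57.6 CPM at TP2, against 40.0 to 66.8 CPM alone in A/B. Over all tested peaks of A/B, 19.2% rose and 24.8% fell at TP1 by the adjusted p, and 14.8% rose and 16% fell at TP2. In C/D 9.34% rose and 5.09% fell at TP1, and 18.5% rose and 16% fell at TP2. The part of these marker peaks in the results was not tested.

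Few members reached the threshold for a call, and counts this small are given beside the share over all tested peaks. In A/B no member was called at TP1 (7.9% of all tested peaks were) and 1 of 16 at TP2 (background 6.41%), and in C/D none at TP1 (1.82%) and 1 of 19 at TP2 (2.75%). TP2 over TP1 gave no call among the members in A/B (1.6%) or C/D (0.629%). By the adjusted p alone, 4 members rose and 3 fell at TP1 in A/B, where 44% of all peaks passed, and 3 rose and 2 fell at TP2, where 30.8% did, shares that are close to the background (19.2% rose and 24.8% fell at TP1, 14.8% and 16% at TP2). In C/D 5 rose and 1 fell of 19 at TP1 (background 14.4%, with 9.34% higher and 5.09% lower) and 9 rose and none fell at TP2 (background 34.5%, with 18.5% higher and 16% lower). Between the time points 1 rose and 1 fell in A/B (background 19%, with 9.58% higher and 9.45% lower), and 3 rose in C/D (27.7%, with 14.1% higher and 13.6% lower). The median log2 change of the tested members in A/B was 0.07 at TP1 and 0.03 at TP2 (-0.02 at each time for all peaks tested), and that of C/D was 0.12 at TP1 and 0.20 at TP2 (-0.01 and 0.01 for all peaks tested). Both time points were set against the same samples of B-ALL alone, and the p-values measure the spread between samples, which may be technical.

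**Figure D3:**
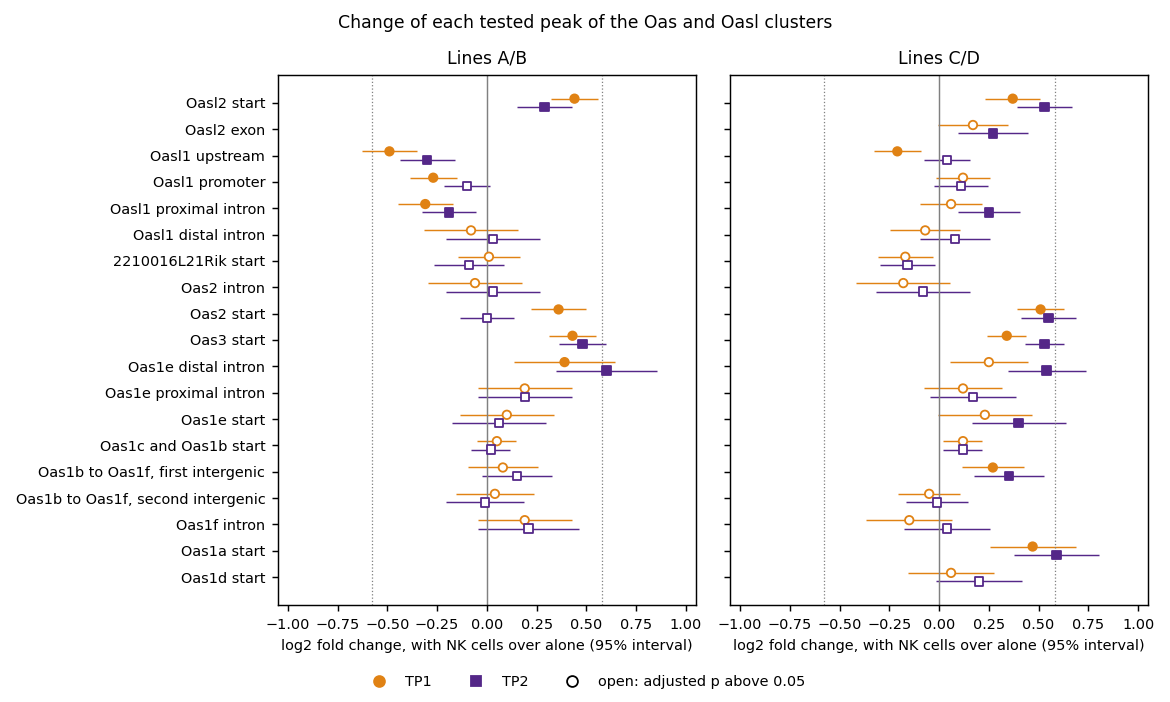
Log2 fold change with NK cells over B-ALL alone (x axis, bars give 95% intervals) for the members tested in A/B (left, 16 peaks) and C/D (right, 19 peaks), in genome order from top to bottom, at TP1 (circles) and TP2 (squares). Filled symbols have an adjusted p of 0.05 or less and dotted lines mark the log2 threshold of 0.58, which the distal intron of Oas1e passes in A/B and Oas1a in C/D, both at TP2.

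The direct comparison of the NK effects (A/B minus C/D) called no member at TP1 (3.87% of 58886 peaks) or at TP2 (4.59%). By the adjusted p alone 3 members were lower in A/B at TP1 (background 17.9%, with 6.85% higher and 11.1% lower) and 3 at TP2 (18%, with 6.78% higher and 11.3% lower), all of them the Oasl1 peaks and Oas2 described above, and none was higher. For Oas3 the difference was 0.09 ± 0.08 and -0.06 ± 0.08 (edgeR adjusted p = 0.445 and 0.642), with 95% intervals of -0.06 to 0.24 and -0.21 to 0.09.

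Without NK cells the pairs already differed at some members. In experiments 9.5, 9.6 and 9.7, which held all 4 lines, 1 member was called between A/B alone and C/D alone (background 15.7%), the start of Oas1a, at -0.79 ± 0.19 (edgeR adjusted p = 0.000259, 0.577-fold). Oas1a entered this test through groups of C/D with NK cells, the pair in which it was higher. With a count filter on the libraries alone and no use of the peak calls, chosen after seeing the data, it gave -0.68 ± 0.17 (adjusted p = 0.000954). Its mean alone was 1.56 ± 0.35 CPM in line A and 1.90 ± 0.61 in line B (SD, n = 3 experiments), and 2.38 ± 0.68 in line C and 3.96 ± 0.52 CPM in line D (n = 4), and line D had the highest mean. The call was lost in experiment 9.6 alone (-0.52 ± 0.25, adjusted p = 0.0992) and with a loess offset (-0.47 ± 0.18, adjusted p = 0.0237). By the adjusted p alone, Oasl2 (0.27 ± 0.07), the upstream peak of Oasl1 (0.22 ± 0.07), its promoter (0.23 ± 0.05) and the shared start of Oas1c and Oas1b (0.17 ± 0.06) were higher and Oas3 (-0.20 ± 0.06) lower in A/B, 6 of 19 with Oas1a where 54.5% of all peaks passed (27.2% higher and 27.3% lower). With the count filter on the libraries alone Oas3 gave -0.07 ± 0.07 (adjusted p = 0.5). Since each pair stems from 1 parental line, these values compare 2 parental lines.

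Several other antiviral interferon-stimulated genes passed the threshold for a call. Of 15 on the list 14 had a tested promoter peak, and 6 were called higher in A/B at TP1 (Mx1, Rtp4, Ddx60, Ifit3, Herc6 and Ifit1), 2 at TP2 (Mx1 and Rtp4), 4 in C/D at TP1 (Mx1, Rtp4, Ifit3 and Rsad2) and 3 at TP2 (Mx1, Rtp4 and Rsad2), with none called lower. Mx1, a GTPase that blocks viral nucleocapsids, gave 1.66 ± 0.13 and 2.04 ± 0.13 in A/B (edgeR adjusted p = 8.16e-17 and 1.28e-20) and 1.24 ± 0.06 and 1.47 ± 0.07 in C/D (adjusted p = 2.6e-26 and 1.69e-30) at TP1 and TP2. Rtp4, an interferon-induced chaperone, gave 1.46 ± 0.11 and 0.91 ± 0.12 in A/B, while C/D had 1.15 ± 0.10 and 0.88 ± 0.11. Rsad2, the antiviral protein viperin, gave 0.54 ± 0.06 and 0.44 ± 0.07 in A/B, while C/D had 0.65 ± 0.07 and 0.60 ± 0.07. The median of the list was 0.50 and 0.27 in A/B, and for C/D it was 0.43 and 0.24. Between the time points 7 of 14 fell in each pair by the adjusted p and 1 rose. Over all tested peaks 9.45% fell in A/B and 13.6% in C/D. Among the members, Oas3 did not fall in either pair, but the Oas2 start fell in A/B (-0.36 ± 0.07, edgeR adjusted p = 0.00011). Oasl2 gave -0.15 ± 0.06 there (adjusted p = 0.0908).

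**Figure D4:**
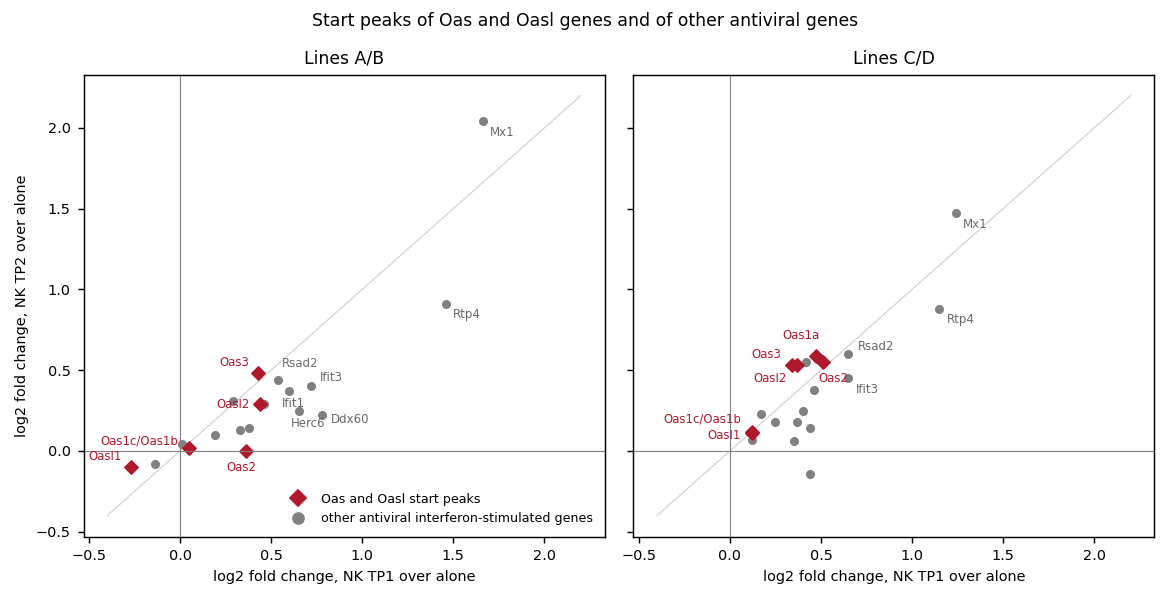
Log2 fold change over B-ALL alone at TP1 (x axis) and TP2 (y axis) of the start peaks of Oas and Oasl genes (red diamonds) and of 14 other antiviral interferon-stimulated genes (grey circles), for A/B and C/D, with a line of equal change. Oas3 lies at 0.43 and 0.48 in A/B and at 0.34 and 0.53 in C/D, while Mx1 reaches 1.66 and 2.04 in A/B.

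Genes that act downstream and upstream of the synthetases were taken from 2 further lists. Of 13 genes of the 2-5A and RNA-sensing list, all with a tested peak, none was called in any comparison of B-ALL + NK with B-ALL alone. Pde12, which encodes an enzyme that degrades 2-5A, lay between -0.05 and 0.05. Ifih1, the cytosolic double-stranded RNA sensor MDA5, rose by 0.52 ± 0.07 and 0.42 ± 0.07 in A/B and by 0.43 ± 0.07 and 0.22 ± 0.07 in C/D (edgeR adjusted p = 2.04e-08, 7.48e-06, 2.23e-06 and 0.0123). By the adjusted p, 3 of 13 rose and 2 fell in A/B at TP1, where 19.2% of all peaks rose and 24.8% fell, and 2 rose and 2 fell at TP2 (14.8% and 16%). In C/D 2 rose and none fell at TP1 (9.34% and 5.09%), and 3 rose and 4 fell at TP2 (18.5% and 16%). Among 16 interferon signalling genes none was called. By the adjusted p, 4 rose and 2 fell in A/B at TP1 and 2 rose and 4 fell at TP2, while in C/D 5 rose and none fell at TP1 and 6 rose and 2 fell at TP2. At TP1 and TP2 the list had medians of 0.02 and -0.05 in A/B, while C/D gave 0.06 and 0.05. Ifngr2, a subunit of the receptor for interferon gamma, fell by 0.24 and 0.17 in A/B (SE 0.05 each), and Irf9, the DNA-binding subunit of ISGF3, rose by 0.56 ± 0.05 and 0.47 ± 0.05 in A/B and by 0.40 ± 0.04 and 0.37 ± 0.04 in C/D. The interferon receptor genes Ifnar1 and Ifnar2 did not rise in any of the 4 comparisons.

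Likeness was taken as the Pearson correlation, over the 28 groups with NK cells, of the change against B-ALL alone between the summed counts of the members tested in both pairs and the promoter peak of each of 15931 genes outside the windows. The 10 closest genes were Acbd4 (r = 0.87), Cep170b and Pitpnm1 (0.86 each), Upk2, D030025P21Rik and Ankrd2 (0.85 each) and Cst6, Fut7, Tmem259 and Gm37759 (0.84 each), against a median of -0.05 over all genes compared. The groups at TP1 and TP2 of a combination share its libraries alone, and the points also share depth and composition of the libraries, so that r is a description. The antiviral genes were ranked lower, with Xaf1 at 0.72 (rank 373) and Bst2 at 0.64, while Mx1 gave -0.39 and Rtp4 -0.34. The members themselves did not move as one, since over the same groups the change of Oas3 had r = 0.36 with Oas2, -0.07 with Oasl2 and 0.50 with the promoter of Oasl1, which in turn had r = -0.42 with Oasl2.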

How the data were processed

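ATAC-seq reads were aligned by the authors to GRCm38 with STAR (version not given for ATAC-seq in the sources used here), Picard 2.27.4 marked duplicates, and MACS2 2.2.7.1 gave broad peaks of each library. The deposited broad-peak files hold fold enrichment and −log10 q values (lowest −log10 q 1.00), of which only the positions were used. The deposited counts are raw featureCounts 2.0.1 read counts per consensus peak, for a minimum overlap fraction of 0.2. Counting was unstranded, and the treatment of reads with several placements was not looked into, which leaves antisense genes and paralogues uncertain.

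Counts were tested with the edgeR 4.0.16 quasi-likelihood F test (R 4.3.3, TMM scaling, Benjamini-Hochberg adjustment over all tested peaks), A/B and C/D apart, with a term per combination of cell line and experiment and one per arm. Peaks with adjusted p ≤ 0.05 and |log2 fold change| ≥ 0.58 were called, the thresholds of the study. Named were the peaks called in any test and the peak nearest each Oas or Oasl start, if within 3 kb. The members and gene lists were chosen with earlier results of these data known. Scripts were tested on simulated data. Alternatives covered scaling, filters, DESeq2 1.42.0, a replicate block, and left-out replicates, combinations and experiments. Results for some listed genes are not reported here.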

Additional observations from a re-analysis of the deposited data

Results flagged for a closer look

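In 3 of 70 sets of combinations the highest lay far from the others by Dixon's criterion, of which chance gives about 1 in 20. The Oas3 start in A/B at TP2 changed by 0.85 in combination B 9.5, against 0.32 to 0.46 in the others. The Oas1e start in A/B at TP1 gave 0.27 in A 9.5, against 0.00 to 0.10, and the start of 2210016L21Rik, a neighbour of Oasl1, gave 0.38 in A 9.5, against -0.15 to 0.04.

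The NK effect differed between A/B and C/D by the edgeR test of the difference itself at 4 peaks. These were 3 of 19 members at TP1 and 3 of 19 at TP2. Of all 58886 tested peaks 17.9% passed the adjusted p at TP1 and 18% at TP2, so the members were near the background. The pairs stem from different parental lines, and no alternative of this test left out a line, an experiment or a combination. The difference (A/B minus C/D) was -0.56 at the Oas2 start at TP2, -0.38 at the Oasl1 promoter at TP1, -0.27 at TP1 and -0.34 at TP2 at the peak upstream of Oasl1, and -0.37 at TP1 and -0.44 at TP2 in the proximal intron of Oasl1.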

How the results depend on the processing

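Of 3188 values of named peaks under an alternative, 43 became calls and 23 lost one in the same direction, and 329 had the other sign. In 310 of these the adjusted p was above 0.05 both with and without the alternative, and the other 19, with a value at 0.05 or less in one of the 2, were as follows, all of them in a single experiment or line. At TP1 in A/B the Oas2 intron gave 0.62 in experiment 9.5 and the distal intron of Oas1e -0.26 in 9.6, and in C/D the peak upstream of Oasl1 gave 0.02 in 9.6.1 and the first intergenic peak between Oas1b and Oas1f -0.02 in 9.5.1. At TP2 in A/B the proximal intron of Oasl1 gave 0.01 in line B. At TP2 in C/D experiment 9.5.1 gave -0.19 for the proximal intron of Oasl1, -0.47 for the Oas1e start and -0.04 for the intergenic peak, 9.6.1 gave -0.05 for the Oas1e start, and 9.7 gave -0.56 for the Oas1f intron. For TP2 over TP1 in A/B experiment 9.6 gave -0.07 for the Oasl1 promoter and 0.50 for the proximal intron of Oas1e. For TP2 over TP1 in C/D experiment 9.6.1 gave -0.06 for the peak upstream of Oasl1, -0.09 for the Oas3 start and -0.02 for the distal intron of Oas1e, and 9.7 gave 0.51 for the Oasl1 promoter, -0.50 for the Oas2 intron, -0.39 for the proximal intron of Oas1e and -0.45 for the Oas1f intron. The number of members called moved as follows, and the cause was not tested. In A/B at TP1 (0 called) it was 5 in experiment 9.5 alone, 1 in experiment 9.7 alone and 1 with no filter. In A/B at TP2 (1 called) it was 2 in experiment 9.5 alone and 0 with a loess offset, with the count filter alone, with a broad peak in every library, with peaks within 3 kb of a start only, in experiments 9.6 and 9.7 alone, with no filter, and without combination A 9.5, A 9.6 or B 9.7, and left-out replicates gave 0 to 1. TP2 over TP1 in A/B (0 called) gave 1 in experiment 9.6 alone. In C/D at TP1 (0 called) it was 1 with the count filter alone, in experiment 9.6 alone and in line D alone, 2 with no filter and 3 in experiment 9.6.1 alone. In C/D at TP2 (1 called) it was 0 with library totals, with a broad peak in every library, in experiment 9.5.1 alone, without combination C 9.5, C 9.5.1, C 9.7 or D 9.6, and without the D 9.6 library that stood apart, an alternative chosen after seeing the data. It was 2 with the count filter alone, near starts only, with no filter, in experiment 9.6.1, line C or line D alone and without combination C 9.6, 4 in experiment 9.6 alone and 5 in experiments 9.5 and 9.7 alone, and left-out replicates gave 0 to 2. TP2 over TP1 in C/D (0 called) gave 1 with the count filter alone and with no filter, 3 in experiment 9.6 alone and 2 in experiment 9.7 alone. Between the pairs alone (1 called) it was 0 with a loess offset and in experiment 9.6 alone, and 1 with the count filter on the libraries alone. For the difference of the NK effect at TP2 (0 called) left-out replicates gave 0 to 1. Same-numbered replicates had median correlations of -0.00, 0.03 and 0.06, against -0.00, 0.01 and -0.04 for different numbers, and were not treated as pairs. For TP2 against alone, 16 of 41 same-numbered pairs exceeded 0.1, against 17 of 82 with different numbers. Medians near zero cannot exclude a pairing. With a replicate block each pair of lines still had 1 call at TP2. Shallow peaks such as Oas1a and Oas1g limit the precision.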
